A study of Mus musculus with 64 samples.

Results

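The comparison described here set the hippocampus of vehicle-treated Tg2576 mice against that of vehicle-treated wild-type mice. It took the 16 hippocampal arrays labelled as vehicle, 8 Tg2576 and 8 wild-type, out of the 64 arrays of the series, and each array held RNA of 1 sample. Tg2576 mice over-express a mutant human amyloid precursor protein, the source of the amyloid-beta peptide, and the wild-type mice lacked the transgene. The transgene of this line is known to be driven by prion protein gene sequences, and amyloid plaques are known to form in these mice later in life. All mice were of the B6SJLF1 strain, a cross of C57Bl/6 and SJL, were 4 months old, and carried an infusion pump that delivered vehicle for 28 days. The remaining hippocampal groups, 8 Tg2576 and 8 wild-type arrays, differed only in that the pump delivered PF-04447943, which inhibits Pde9a, an enzyme that degrades cyclic GMP. They entered the same statistical fit and give the genotype comparison in a second set of arrays. Prefrontal cortex was dissected as well, and by the description of the design from the mice of the same groups, so its values are not an independent set.

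Cholesterol hardly crosses from blood into the brain, so brain cells make their own. The early mevalonate enzymes turn acetyl units into farnesyl pyrophosphate, squalene synthase (Fdft1) joins farnesyl units as the first step committed to sterols, and a further series of enzymes turns squalene into cholesterol. The genes of this pathway are known to be regulated together by Srebf2 (SREBP-2), a transcription factor that is held in the endoplasmic reticulum by Scap and the Insig proteins when sterols are plentiful and is cut free by the proteases Mbtps1 and Mbtps2 when they are scarce. In the hippocampus the Tg2576 mouse is known for amyloid-beta production, synaptic changes and a glial reaction to plaques.

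The 16 vehicle arrays carried the tissue they were labelled for. The mean log2 level of dentate granule cell markers was 8.45 to 9.24 on them and 6.95 to 7.42 on the prefrontal arrays, and that of CA1 pyramidal cell markers was 10.11 to 10.71 against 8.47 to 9.19. Correlations between the 16 arrays lay between 0.986 and 0.996. The spread of log2 values within an array, taken as their interquartile range, was 3.37 to 3.67 in Tg2576 and 3.43 to 3.69 in wild-type mice, and the difference between the 3 prime and 5 prime control probe sets, a sign of RNA quality, was 0.0036 to 0.117 and 0.0174 to 0.179. Choroid plexus markers, which belong to a tissue inside the ventricle beside the hippocampus, differed widely from array to array, from 6.71 to 10.25.

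On the PF-04447943 side, the array labelled Tg2576 replicate 1 went against its hippocampal label. Its dentate marker level was 7.15, where the other 7 arrays of its group were at 8.42 to 9.12, and its CA1 level was 9.16, where the others were at 10.15 to 10.81. Both values lay within the prefrontal range. Its markers of cortical excitatory neurons were at 9.57, within the prefrontal range of 9.45 to 10.06 and above the 8.64 to 9.24 of the other 7, and its myelin markers at 9.48, below their 10.81 to 11.21. PF-04447943 values below include this array, and a value without array 1 of that group follows where a count was affected or a difference moved by over 0.05; leaving it out was decided after seeing the data. The vehicle differences do not contain the array, but it enters the common estimate of the spread and so the vehicle p-values. Vehicle p-values and counts below come from the fit that includes it unless stated otherwise.

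Of 12961 genes tested, 1 rose in Tg2576 hippocampus and 0 fell at a Benjamini-Hochberg adjusted p under 0.05 in limma, which is 0.00772% and 0% of the genes. The gene that rose was Fdft1. Without the PF-04447943 Tg2576 array with prefrontal marker levels, 3 genes passed (0.0231%), all higher: Fdft1 (adjusted p = 0.00209 in limma), Hmgcs1 (0.0103) and Stard4 (0.0218). The count depended on single vehicle arrays as well: it was 8 without Tg2576 array 3 (7 higher, 1 lower), 3 without wild-type array 1, and 2 without Tg2576 array 1, Tg2576 array 4 or wild-type array 3. Over arrays 1 to 4 of each genotype it was 0 and over arrays 5 to 8 it was 9. These fits by array number also held the PF-04447943 arrays of the same numbers. PF-04447943 Tg2576 array 1 thus entered the spread of the first and not of the second. At an unadjusted p under 0.05, 247 genes were higher (1.91%) and 482 lower (3.72%), 729 in all (5.62%), where 648.05 are expected by chance. The median difference of all genes was -0.01 on the log2 scale, and 6064 of them (46.8%) lay above 0. Differences are given as Tg2576 minus wild-type on the log2 scale of the array intensity throughout, with n = 8 arrays per group.

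**Figure D1:**
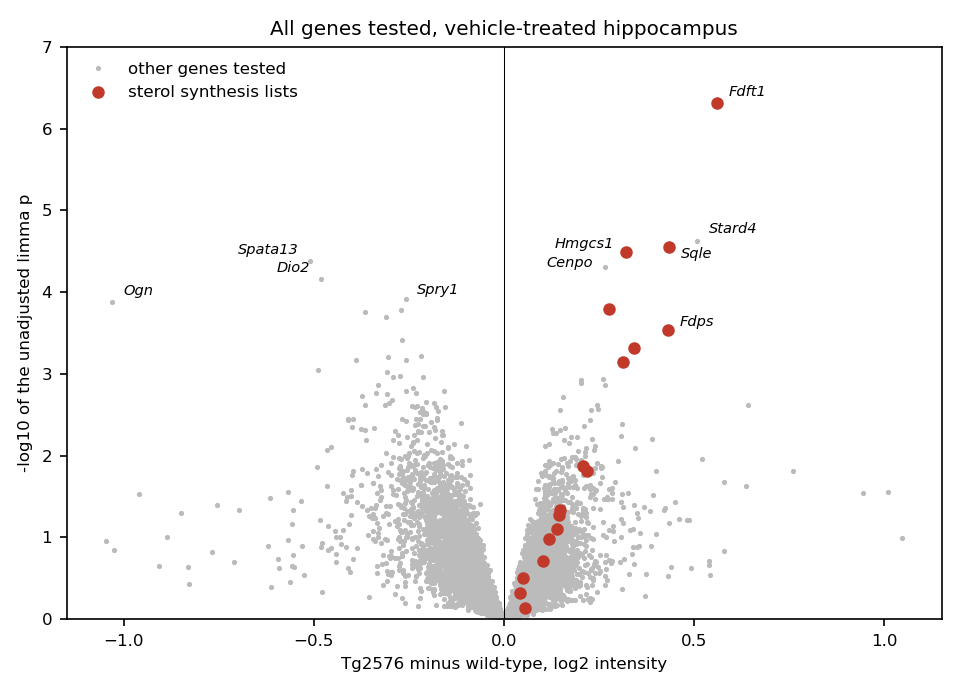
Each point is 1 of the 12961 genes tested, by its difference between Tg2576 and wild-type hippocampus under vehicle (log2 intensity, horizontal axis) and the -log10 of its unadjusted limma p (vertical axis). Red points are the 17 sterol synthesis genes, all to the right of 0, with Fdft1 highest on the vertical axis.

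The transgene itself could not be read from these arrays with certainty, because the sources used here do not say whether the mouse App probes bind the human transcript. The brightest App probe set was at 13.94, 13.98 and 14.01 (lowest, median and highest array) in Tg2576 mice and at 13.93, 13.98 and 14.01 in wild-type mice. The genotypes overlapped fully, with a difference of 0.00 ± 0.028 (SE). A second bright App probe set differed by 0.06 and the remaining pair of dim ones by -0.01 and 0.01. The brightest probe set of Prnp, the mouse prion protein gene, differed by -0.00 and its second by 0.09, and none of these passed the test. The labels of genotype therefore have no check within the data. Pde9a, the target of the drug given to the remaining groups, was at 7.08, 7.42 and 7.93 in Tg2576 and 7.11, 7.37 and 7.81 in wild-type mice under vehicle, a difference of 0.03 ± 0.15 (SE).

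Fdft1, on chromosome 14, encodes squalene synthase. Its log2 intensity was 10.39, 10.59 and 10.91 (lowest, median and highest array) in Tg2576 mice and 9.73, 10.05 and 10.32 in wild-type mice. All 8 Tg2576 arrays lay above all 8 wild-type arrays. Fdft1 rose by 0.56 ± 0.089 (SE) on the log2 scale, a fold of 1.48, with an adjusted p of 0.00622 in limma. The exact two-sided permutation test over the 12870 regroupings of the 16 arrays gave p = 0.0001554, the smallest they can give, for a gene that was picked for its difference. Fdft1 has 4 probe sets: a second bright one, at a mean level of 10.3, differed by 0.55, and the dim ones, at 6.36 and 5.93, differed by 0.07 and 0.06. Over arrays 1 to 4 of each genotype the difference was 0.36 (adjusted p = 0.382 in limma), and over arrays 5 to 8 it was 0.76 (adjusted p = 0.0178). The spread behind the first p, and not the second, included PF-04447943 Tg2576 array 1. Whether the array numbers mark a batch is not stated in the labels.

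**Figure D2:**
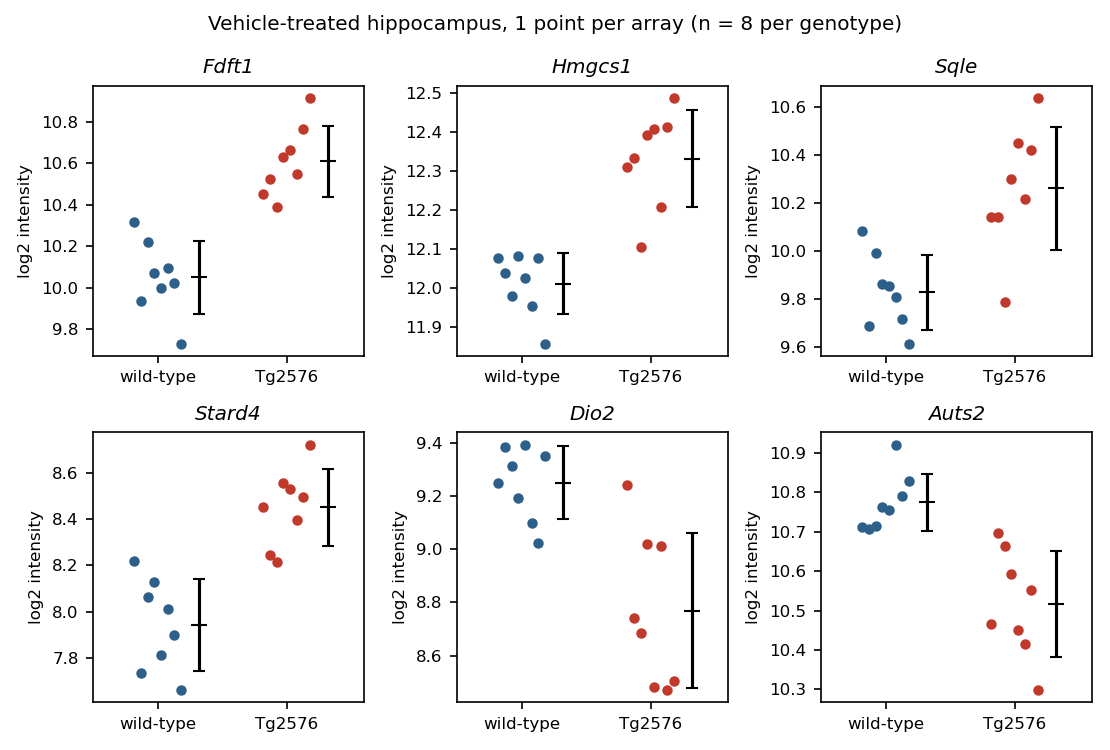
Log2 intensity (vertical axes) of 6 genes on each of the 8 wild-type (blue) and 8 Tg2576 (red) arrays from vehicle-treated hippocampus, spread in order of array number, with mean and SD as black bars. All Tg2576 points lie above the wild-type points for Fdft1 and Hmgcs1 and below them for Auts2, while 1 Tg2576 array overlaps for Sqle, Stard4 and Dio2.

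Read from their brightest probe sets, the 17 sterol synthesis genes that were tested, of 20 listed, all lay above 0 in Tg2576 hippocampus. Of all genes 46.8% did. Their median difference was 0.21, against -0.01 over all genes, and ran from 0.04 to 0.56. Of the 17, 1 passed the test over all genes and 10 had an unadjusted p under 0.05 on the higher side, where 1.91% of all genes had; 0 had one on the lower side. The list was chosen with this pattern already known from these arrays, so its count describes the pattern and does not test it. The mean level of the 17 genes per array was 9.11, 9.42 and 9.58 (lowest, median and highest) in Tg2576 and 8.99, 9.17 and 9.25 in wild-type mice. Tg2576 array 3 was the lowest of its group and lay within the wild-type range, and the other 7 lay above it. Over arrays 1 to 4 the median difference of the 17 genes was 0.05, with 13 above 0, and over arrays 5 to 8 it was 0.32, with 16 above 0.

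The bases before the start sites of these genes are shown for 4 members with large differences, because the pathway is known for promoters that carry a sterol regulatory element beside CCAAT and GC boxes. RefSeq promoters (GRCm38.p6) were at hand for 14 of the 17 genes. None was at hand for Fdft1, Sqle and Fdps, which had the largest differences of the 17, so these were not searched. The promoters of the 14 genes were searched on both strands for TCACNCCAC (sterol regulatory element), CCAAT (the box bound by NF-Y) and GGGCGG (GC box) in the 250 bases before each start. In the lines below, read 5′ to 3′ along the gene's own strand with the start site just after the last base, capitals mark the sterol regulatory element and CCAAT, which reads ATTGG where it lies on the opposite strand. The 4 regions are chr13:119690101-119690350 (plus strand) for Hmgcs1, chr1:169969206-169969455 (minus) for Hsd17b7, chr8:64733579-64733828 (minus) for Msmo1 and chrX:72918271-72918520 (plus) for Nsdhl.
Hmgcs1: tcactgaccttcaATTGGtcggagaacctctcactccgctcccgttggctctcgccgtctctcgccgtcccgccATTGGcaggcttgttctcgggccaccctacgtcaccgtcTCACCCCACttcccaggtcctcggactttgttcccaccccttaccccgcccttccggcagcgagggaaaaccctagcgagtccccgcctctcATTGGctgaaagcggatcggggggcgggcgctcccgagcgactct
Hsd17b7: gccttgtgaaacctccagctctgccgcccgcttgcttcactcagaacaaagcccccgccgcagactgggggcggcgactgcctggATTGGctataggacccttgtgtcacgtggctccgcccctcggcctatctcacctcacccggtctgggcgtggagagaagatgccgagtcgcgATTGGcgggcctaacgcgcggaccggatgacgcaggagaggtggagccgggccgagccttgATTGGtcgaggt
Msmo1: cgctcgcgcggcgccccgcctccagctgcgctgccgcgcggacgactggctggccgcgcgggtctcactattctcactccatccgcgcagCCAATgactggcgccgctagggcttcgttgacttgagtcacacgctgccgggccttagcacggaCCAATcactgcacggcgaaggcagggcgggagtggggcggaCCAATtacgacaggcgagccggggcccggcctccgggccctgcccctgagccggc
Nsdhl: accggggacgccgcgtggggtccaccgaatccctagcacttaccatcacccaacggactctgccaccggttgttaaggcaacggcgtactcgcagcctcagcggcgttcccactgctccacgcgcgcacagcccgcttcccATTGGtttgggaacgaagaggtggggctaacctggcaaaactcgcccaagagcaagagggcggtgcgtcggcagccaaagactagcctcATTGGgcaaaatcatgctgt
The letters of the sterol regulatory element were found in Hmgcs1 alone of the 14 genes, with their first base 137 bases before the start, and in 1.23% of the 27025 genes in the RefSeq table. Outside the 17 genes, the sterol transfer gene Stard3, which differed by -0.00, also carried these letters, from 211 bases before its start. CCAAT was found in 14 of 14, against 37.5% of all genes, and GGGCGG in 13 of 14, against 35.4%. In Hmgcs1 the CCAAT letters began 237, 176 and 45 bases before the start, in Hsd17b7 165, 73 and 12, in Msmo1 160, 96 and 55, and in Nsdhl 109 and 20. A match of letters describes these windows and does not show a bound factor.

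In the early mevalonate pathway, 4 of the 6 genes tested had an unadjusted p under 0.05, all on the higher side, and 0 passed the test. Hmgcs1, an enzyme at the start of the pathway, was at 12.10, 12.36 and 12.49 in Tg2576 and 11.86, 12.03 and 12.08 in wild-type mice. Its groups did not overlap, the difference was 0.32 ± 0.066 (SE, adjusted p = 0.105 in limma, 0.0103 without PF-04447943 Tg2576 array 1), and its 5 probe sets differed by 0.21 to 0.43. Genes in which all 8 Tg2576 arrays lay above all 8 wild-type arrays numbered 4 among all genes tested (0.0309%), and Fdft1 and Hmgcs1 were 2 of them.

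Fdps, which makes farnesyl pyrophosphate, was at 9.47, 10.03 and 10.53 in Tg2576 and 9.47, 9.55 and 9.73 in wild-type mice. Of the Tg2576 arrays 6 lay above the whole wild-type group, and the difference was 0.43 ± 0.106 (SE, adjusted p = 0.271). Mvd, the decarboxylase that ends the mevalonate steps, differed by 0.21 and Idi1, an isomerase, by 0.15. A second Idi1 probe set above the filter, at a mean level of 8.15, differed by -0.03 ± 0.13 (SE). The kinases Mvk and Pmvk, which phosphorylate mevalonate, differed by 0.14 and 0.12, with unadjusted p of 0.079 and 0.104. Read from their brightest probe sets, all 6 genes thus lay on the same side of 0, with Hmgcs1 and Fdps farthest from it.

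Among the 11 tested genes between squalene and cholesterol, 6 had an unadjusted p under 0.05, all higher, and Fdft1 passed. Sqle, squalene epoxidase, was at 9.79, 10.26 and 10.64 in Tg2576 and 9.62, 9.83 and 10.08 in wild-type mice. Only Tg2576 array 3 lay within the wild-type range, and the difference was 0.43 ± 0.089 (SE, adjusted p = 0.105). Hsd17b7, a sterol ketoreductase, was at 8.53, 8.68 and 8.88 against 8.22, 8.42 and 8.56, with 7 of 8 Tg2576 arrays above the wild-type group and a difference of 0.28 ± 0.065 (SE, adjusted p = 0.19).

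Msmo1 and Nsdhl act in the removal of methyl groups from sterols. Msmo1 was at 10.05, 10.55 and 10.97 in Tg2576 and 9.91, 10.27 and 10.38 in wild-type mice, a difference of 0.34 ± 0.088 (SE, adjusted p = 0.393). Nsdhl was at 9.15, 9.70 and 9.86 against 9.09, 9.30 and 9.58, a difference of 0.31 ± 0.084 (SE, adjusted p = 0.439). In both genes Tg2576 array 3 was the lowest of its group. Tm7sf2, a sterol reductase, differed by 0.22, and Cyp51, the sterol demethylase, by 0.15. The smallest differences were those of Dhcr7 (0.10), which makes cholesterol in the last step, Sc5d (0.05) and Ebp (0.05), which act shortly before it, and Lss (0.04), which closes the sterol rings; for these 4 genes the unadjusted p was 0.193 to 0.725.

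**Figure D3:**
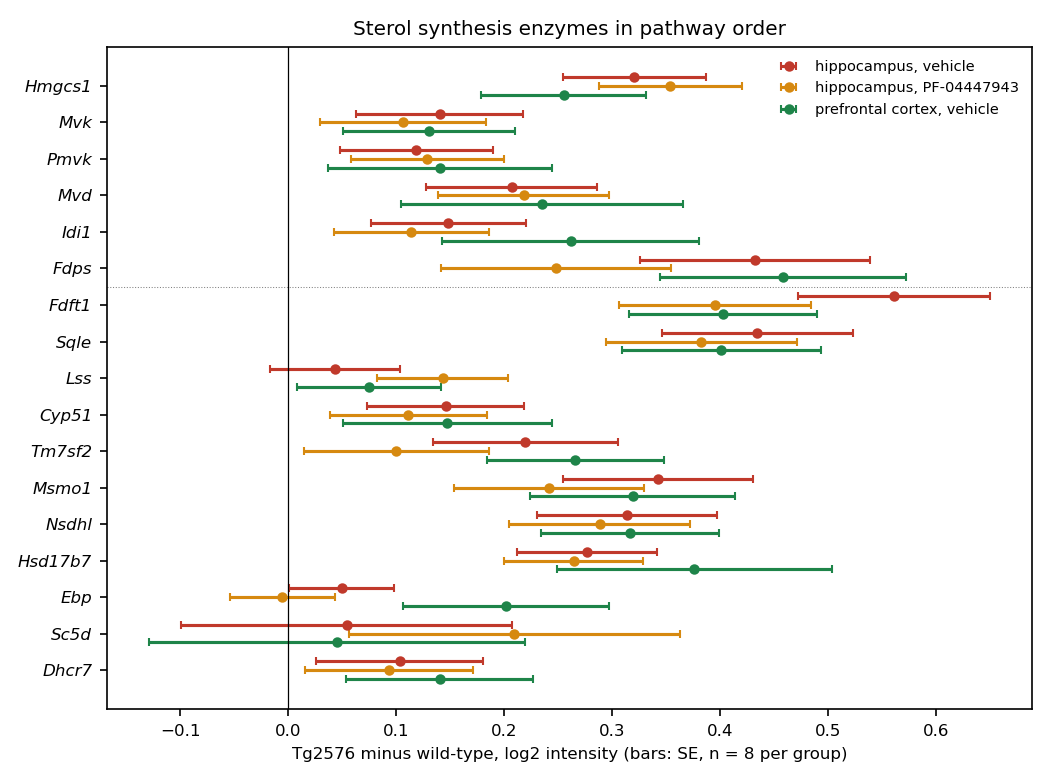
Differences between Tg2576 and wild-type mice (log2 intensity, horizontal axis) with SE for the 17 sterol synthesis genes in pathway order, in vehicle-treated hippocampus (red), PF-04447943-treated hippocampus (orange, the Tg2576 array with prefrontal marker levels included) and vehicle-treated prefrontal cortex (green). The dotted line separates mevalonate genes from those from squalene synthase onwards; in vehicle-treated hippocampus all points lie above 0, from 0.04 for Lss to 0.56 for Fdft1.

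Of the 15 tested genes that sense sterols, take them up or move them between membranes, 0 passed, 3 had an unadjusted p under 0.05 on the higher side and 1 on the lower. Their median difference was -0.00, so the list as a whole stood near the median of all genes. Stard4, a carrier that moves cholesterol between membranes, was at 8.21, 8.47 and 8.72 in Tg2576 and 7.66, 7.96 and 8.22 in wild-type mice. All but 1 Tg2576 array lay above the wild-type group, the difference was 0.51 ± 0.103 (SE, adjusted p = 0.105 in limma, 0.0218 without PF-04447943 Tg2576 array 1), and its 3 probe sets differed by 0.48 to 0.68.

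The regulator Srebf2 was at 10.23, 10.41 and 10.48 in Tg2576 and 10.00, 10.21 and 10.29 in wild-type mice, a difference of 0.20 ± 0.057 (SE, adjusted p = 0.569). Insig1, itself a known target of Srebf2, differed by 0.23 (unadjusted p = 0.0145), and the protease Mbtps1 by -0.11 (unadjusted p = 0.013). Tmem97, a sterol-binding membrane protein, differed by 0.13, Scap by -0.03, Insig2 by 0.01, Mbtps2 by -0.07 and Srebf1, the relative that governs fatty acid genes, by -0.08. The lysosomal cholesterol exporters Npc1 and Npc2 differed by -0.10 and -0.14, the transfer proteins Gramd1a, Gramd1b and Stard3 by 0.09, -0.04 and -0.00, and Mylip, a ubiquitin ligase, by 0.04.

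Neighbouring branches of lipid metabolism stood nearer to 0. In the list of cholesterol efflux, hydroxylation and liver X receptors, an unadjusted p under 0.05 was seen in 0 of 10 tested genes, with a median of -0.02. Apoe, the main lipoprotein of the brain, differed by -0.09, the exporter Abcg1 by -0.13 and Cyp46a1, the neuronal enzyme that hydroxylates cholesterol for export, by 0.12. Of 13 isoprenoid branch genes, which use farnesyl units for other products, an unadjusted p under 0.05 was seen in 0, with a median of 0.02. Among 14 genes of fatty acid synthesis, Acly, which supplies acetyl units, differed by 0.16 (unadjusted p = 0.0123), the desaturase Fads1 by -0.11 (unadjusted p = 0.0325) and Acaca, the acetyl-CoA carboxylase, by 0.09, with a list median of 0.01.

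The mice given PF-04447943 provide the same genotype comparison on 16 other arrays. There 0 genes passed in either direction, 50.9% of genes lay above 0, and 288 were higher (2.22%) and 360 lower (2.78%) at an unadjusted p under 0.05. Without Tg2576 array 1, 182 were higher (1.4%) and 208 lower (1.6%), and 0 passed. Fdft1 was at 10.47, 10.58 and 10.96 in treated Tg2576 and 9.93, 10.20 and 10.47 in treated wild-type mice. The lowest treated Tg2576 array and the highest treated wild-type array stood at the same level to the second decimal, with the others apart. The highest value, 10.96, was that of Tg2576 array 1, and the other 7 reached 10.66. The difference was 0.40 ± 0.089 (SE, adjusted p = 0.331; exact two-sided permutation p = 0.0003108). The difference between 0.56 and 0.40 was 0.17 ± 0.126 (SE, unadjusted p = 0.197), which did not pass the test. Without Tg2576 array 1 the treated difference was 0.34 ± 0.0862 (SE, adjusted p = 0.684; exact two-sided permutation p = 0.0006216), and that between vehicle and PF-04447943 was 0.22 ± 0.12 (SE, unadjusted p = 0.0815).

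Of the 15 genes with the smallest p on the higher side under vehicle, 9 belong to the sterol lists, and 9 of 9 had the same direction with an unadjusted p under 0.05 on the PF-04447943 arrays. Their differences there were 0.55 for Stard4, 0.38 for Sqle, 0.35 for Hmgcs1, 0.29 for Nsdhl, 0.26 for Hsd17b7, 0.25 for Fdps, 0.24 for Msmo1 and 0.16 for Srebf2, beside Fdft1. Tg2576 array 1 had the highest Stard4 and Hmgcs1 of its group, at 9.05 and 12.79, where the other 7 reached 8.65 and 12.39. Without it the differences were 0.48 for Stard4 and 0.30 for Hmgcs1, and 9 of 9 still had an unadjusted p under 0.05 on the higher side. The 17 synthesis genes had a median of 0.21 there, 16 above 0 (0.19 and 17 without Tg2576 array 1), and in vehicle-treated prefrontal cortex a median of 0.26, all 17 above 0, where the median of all genes was 0.05. In prefrontal cortex Fdft1 differed by 0.40 and Stard4 by 0.41, and 0 genes passed the test there, with an unadjusted p under 0.05 in 8.82% of genes on the higher side and 3.26% on the lower, and 67.6% of genes above 0.

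Of the remaining 6 genes among the 15 higher ones, 5 had the same direction under PF-04447943 and 1 had an unadjusted p under 0.05. Over all 12961 genes 57.9% had the same direction in both comparisons, and of the 247 higher genes under vehicle 158 had it, 9.72% of them with an unadjusted p under 0.05. Without Tg2576 array 1 under PF-04447943 these were 58.3%, 163 and 7.29%, and the 6 genes gave 5 and 1 again. Cenpo, a kinetochore protein, was at 5.99, 6.24 and 6.47 in Tg2576 and 5.88, 5.95 and 6.18 in wild-type mice under vehicle. These values lay near the filter level of log2 5.94. The Cenpo difference was 0.27 ± 0.057 (SE, adjusted p = 0.108) under vehicle and 0.03 under PF-04447943. The helicase Mcm8 (0.26 and 0.03), the methyltransferase Setd4 (0.27 and 0.03) and the histone acetyltransferase Kat8 (0.16 and -0.03) differed little under PF-04447943, as did Csf3r, the receptor of a granulocyte growth factor (0.25 and 0.11). Fbxw7, the substrate-binding part of a ubiquitin ligase, differed by 0.20 and 0.12.

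Besides Fdft1 and Hmgcs1, the groups stood apart for Polr3g, a subunit of RNA polymerase III, at 6.48 to 6.67 in Tg2576 and 6.12 to 6.46 in wild-type mice, and for Syk, a kinase of immune receptors, at 6.42 to 6.70 and 5.98 to 6.41. Both genes lay near the filter level of log2 5.94. Their differences were 0.25 (adjusted p = 0.641) and 0.19 (adjusted p = 0.733), and 0.06 and -0.00 under PF-04447943. In 2 genes (0.0154%) all 8 Tg2576 arrays lay below all 8 wild-type arrays. How many genes would stand apart by chance in either direction was not computed. Auts2, a nuclear protein of developing and adult neurons, was at 10.30, 10.51 and 10.70 in Tg2576 and 10.71, 10.76 and 10.92 in wild-type mice, a difference of -0.26 ± 0.068 (SE, adjusted p = 0.439). Ppm1g, a protein phosphatase, was at 10.00 to 10.23 and 10.24 to 10.32, a difference of -0.11.

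No gene passed the test on the lower side, where 482 genes had an unadjusted p under 0.05. Dio2, the glial enzyme that activates thyroid hormone, was at 8.47, 8.71 and 9.24 in Tg2576 and 9.02, 9.28 and 9.39 in wild-type mice. Of the Tg2576 arrays 7 lay below the whole wild-type group, and the difference was -0.48 ± 0.105 (SE, adjusted p = 0.126), with -0.44 under PF-04447943 (-0.50 without array 1) and -0.30 in prefrontal cortex. Slco1c1, a thyroid hormone transporter of the blood-brain barrier and astrocytes, differed by -0.26 (unadjusted p = 0.0227). In the thyroid hormone list 2 of 9 tested genes had an unadjusted p under 0.05, both lower, and the median was -0.10.

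Spata13, a guanine nucleotide exchange factor, was at 6.37, 6.78 and 7.04 in Tg2576 and 6.79, 7.32 and 7.52 in wild-type mice. Its difference was -0.51 ± 0.107 (SE, adjusted p = 0.106) under vehicle, -0.18 under PF-04447943 and 0.10 in prefrontal cortex. Ogn, the matrix protein osteoglycin of meningeal fibroblasts, was at 5.42, 5.92 and 7.03 against 6.18, 7.15 and 7.89. Its difference was -1.03 ± 0.237 (SE, adjusted p = 0.19), with 5 Tg2576 arrays below the wild-type group, and -0.68 under PF-04447943 (-0.57 without array 1). Spry1, an inhibitor of growth factor signalling, was at 7.55, 7.81 and 8.04 against 7.91, 8.09 and 8.25, a difference of -0.26 ± 0.059 (SE, adjusted p = 0.19), and -0.08 under PF-04447943.

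The other lower genes with small p were of mixed function. The Rac activator Dock1 (-0.27), the ubiquitin ligase Rnf122 (-0.37) and Magt1, a factor of protein glycosylation and magnesium transport (-0.31), differed by -0.06, -0.05 and 0.01 under PF-04447943. D16Ertd472e (-0.31), the Hippo pathway kinase Stk4 (-0.27) and Npnt, a matrix ligand of integrins (-0.39), differed by -0.20 (-0.14 without array 1), -0.20 and -0.47 there. Rab31, a vesicle GTPase (-0.22), Tent5a (-0.49), the nucleotide sugar transporter Slc35d1 (-0.31) and the DNA repair enzyme Mgmt (-0.27) completed the 15. Of these 15 lower genes, 13 had the same direction under PF-04447943 and 6 an unadjusted p under 0.05. Of the 482 lower genes 75.5% had the same direction there, 12.2% with an unadjusted p under 0.05. Without array 1 these were 13 and 5 of the 15, and 73.7% and 9.13% of the 482.

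**Figure D4:**
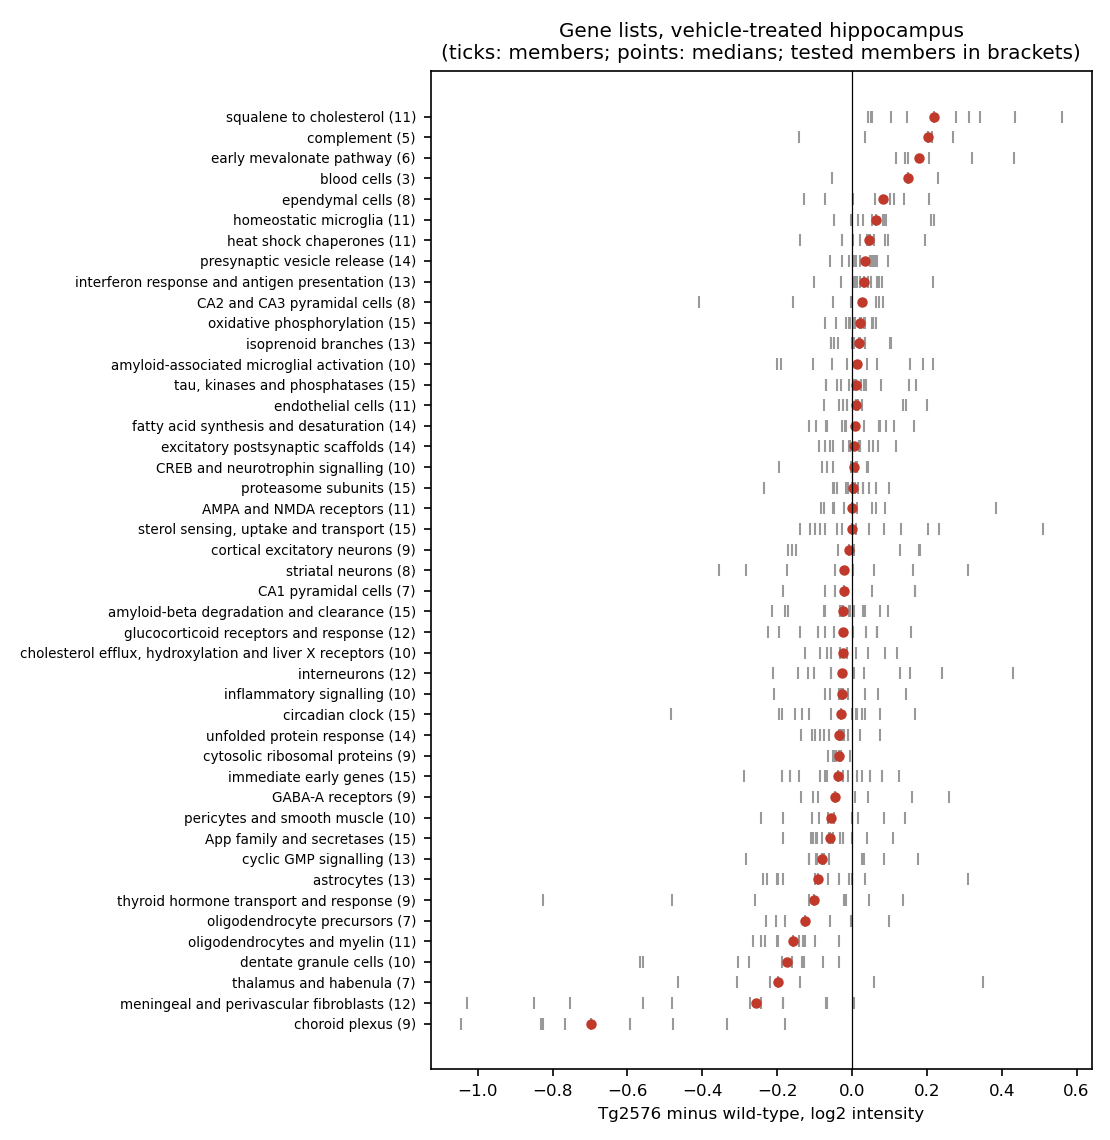
Each line is 1 gene list, with the number of its tested genes in brackets, grey ticks for the members' differences between Tg2576 and wild-type mice under vehicle (log2 intensity, horizontal axis) and a red point for their median. The medians run from 0.22 for squalene to cholesterol down to -0.70 for choroid plexus.

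The amyloid pathway itself showed 0 genes past the threshold. Of 15 tested genes of the App family and its secretases, 3 lay above 0, 2 had an unadjusted p under 0.05, both lower, and the median was -0.06 (0.02 under PF-04447943). Aplp1, the App relative of neurons, was at 13.75 to 13.89 in Tg2576 and 13.85 to 13.91 in wild-type mice, a difference of -0.06, and Bace2, a relative of beta-secretase, differed by -0.18. Under PF-04447943 the same genes differed by 0.02 and 0.13. Adam17, an alpha-secretase, differed by -0.11. Of 15 genes of amyloid-beta degradation and clearance, Ide, the insulin-degrading enzyme, differed by -0.17 (unadjusted p = 0.0248), the peptidase Ace by -0.18 and the metalloprotease Mmp2 by -0.21. Ace was also a member of the choroid plexus list, whose level differed widely between arrays. Of 15 genes of tau and its kinases and phosphatases, the casein kinase Csnk1e differed by 0.15 (unadjusted p = 0.03), Cdk5 by 0.08 and its activator Cdk5r1 by -0.07, with a list median of 0.01.

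Glial lists held a few members with small p in each direction. Gfap, the intermediate filament of reactive astrocytes, was at 11.79, 12.09 and 12.40 in Tg2576 and 11.51, 11.83 and 11.86 in wild-type mice. Of the Tg2576 arrays 6 lay above the wild-type group, and the difference was 0.31 ± 0.1 (SE, unadjusted p = 0.00408, adjusted p = 0.702), against 0.05 under PF-04447943. The other astrocyte genes with an unadjusted p under 0.05 were lower: the bicarbonate transporter Slc4a4 (-0.23), S100b (-0.20), the water channel Aqp4 (-0.24) and the growth factor receptor Fgfr3 (-0.18). Of the 13 astrocyte genes 3 lay above 0, and the median was -0.09 (-0.10 under PF-04447943).

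C1qa and C1qb encode chains of C1q, the first complement component, made by microglia. C1qa was at 10.04, 10.19 and 10.40 in Tg2576 and 9.81, 9.96 and 10.16 in wild-type mice, a difference of 0.21 ± 0.077 (SE, unadjusted p = 0.00897, adjusted p = 0.81). C1qb differed by 0.27 (unadjusted p = 0.0341) and C1qc, the third chain, by 0.20 (unadjusted p = 0.0994). Under PF-04447943 the same 3 genes differed by 0.09, -0.13 and -0.12, and by 0.03, -0.23 and -0.22 without array 1. Of 11 homeostatic microglial genes 9 lay above 0, with Siglech, a microglial lectin, at 0.21 (unadjusted p = 0.00432), Fcrls at 0.22 and the growth factor receptor Csf1r at 0.08. Of 10 genes of amyloid-associated microglial activation 5 lay above 0, the microglial adaptor Tyrobp differed by 0.16, Cd9 by -0.20 and the growth factor Csf1 by -0.19 (unadjusted p = 0.00861). Cst7, Itgax and Clec7a, which mark microglia at plaques, were below the filter on dim genes.

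The inflammatory and interferon lists had medians of -0.03 and 0.03. Of 13 interferon and antigen presentation genes 11 lay above 0 under vehicle. Under PF-04447943 3 did, with a median of -0.12 (4 and -0.11 without array 1). Of 10 tested inflammatory genes 3 lay above 0 under vehicle and 8 under PF-04447943 (4 without array 1). Stat2, a transcription factor of the interferon response, differed by 0.22 (unadjusted p = 0.00804), and -0.02 under PF-04447943. Tlr3, a receptor of double-stranded RNA, was at 6.86, 7.25 and 7.52 in Tg2576 and 7.27, 7.41 and 7.61 in wild-type mice, a difference of -0.21 (unadjusted p = 0.00432), and -0.27 under PF-04447943. Of 19 inflammatory genes listed, 8 were below the filter, among them Il6, Ccl2 and Cxcl10, and Il1b differed by 0.14.

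Every tested member of the myelin and the dentate lists lay below 0, with 0 unadjusted p under 0.05 in the main fit. Without PF-04447943 Tg2576 array 1 the dentate gene Tdo2 had an unadjusted p of 0.0276 in limma. The 11 genes of oligodendrocytes and myelin had a median of -0.16 (under PF-04447943 -0.19, but 0.00 without array 1, and -0.15 in prefrontal cortex), with Mog and Mag, proteins of the myelin sheath, at -0.26 and -0.20. The mean level of the myelin list was 10.66, 10.89 and 11.23 per array in Tg2576 and 10.75, 11.06 and 11.40 in wild-type mice. The groups overlapped over most of their range. In whole tissue, fewer cells of a type and less RNA per cell cannot be told apart. Among oligodendrocyte precursor genes, Pdgfra, the growth factor receptor that marks these cells, was at 9.02, 9.28 and 9.40 against 9.37, 9.49 and 9.60, a difference of -0.23 ± 0.067 (SE, unadjusted p = 0.00172, adjusted p = 0.616), and -0.19 under PF-04447943. Sox10, the lineage transcription factor, differed by -0.20 (unadjusted p = 0.0337).

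The 10 dentate granule cell genes had a median of -0.17. Under PF-04447943 it was -0.41 with all arrays and -0.18 without array 1, whose dentate level lay in the prefrontal range. The tryptophan-degrading enzyme Tdo2 differed by -0.57, Plk5 by -0.28 and the calcium buffer Calb1 by -0.16. By array number, the dentate median was 0.02 over arrays 1 to 4 and -0.52 over arrays 5 to 8, and the myelin median was -0.02 and -0.35. How far the makeup of the dissected tissue takes part in the sterol difference was not tested beyond the values of a pair of fits: with the myelin list's level per array as a covariate, Fdft1 differed by 0.51 (adjusted p = 0.000708 in limma) and the 17 synthesis genes had a median of 0.17. With the choroid plexus level as a covariate Fdft1 differed by 0.54 (adjusted p = 0.0107) and the median was 0.19. Both fits took their slope from all hippocampal arrays, PF-04447943 Tg2576 array 1 included. The myelin level of that array, 9.48, lay far below the 10.81 to 11.21 of the others in its group. Neither covariate fit was repeated without it, so their values may depend on that array.

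**Figure D5:**
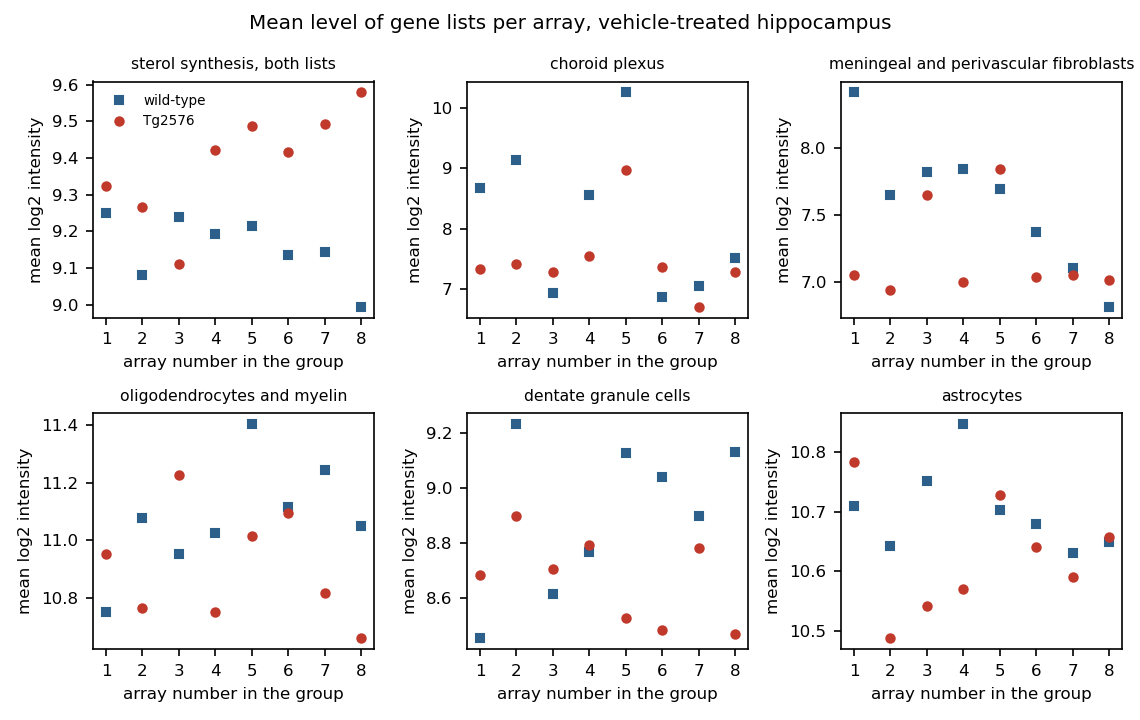
Mean log2 intensity (vertical axes) of 6 gene lists on each of the 8 wild-type (blue squares) and 8 Tg2576 (red circles) arrays from vehicle-treated hippocampus, by array number. The sterol list separates the genotypes most in arrays 5 to 8, while choroid plexus and meningeal levels are scattered, with wild-type array 5 at 10.25 in choroid plexus.

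Choroid plexus and meningeal genes were lower on average, with wide scatter. All 9 tested choroid plexus genes lay below 0, with a median of -0.70 (under PF-04447943 -0.01, and 0.09 without array 1), and 1, Steap1, had an unadjusted p under 0.05 (-0.70, unadjusted p = 0.0463). Ttr, transthyretin, the most abundant product of the choroid plexus, was at 8.94, 12.10 and 14.80 in Tg2576 and 10.13, 13.50 and 15.06 in wild-type mice. The groups overlapped over nearly all of that range, and the difference of -0.83 had an SE of 0.923. Without wild-type array 5 the list's median was -0.38, and it was -0.93 over arrays 1 to 4 and -0.36 over arrays 5 to 8. Of 12 meningeal and perivascular fibroblast genes 1 lay above 0, and the median was -0.26 (0.09 under PF-04447943). It was -0.15 without wild-type array 1. Over arrays 1 to 4 it was -0.71, with 0 of 12 genes above 0, and over arrays 5 to 8 it was -0.05, with 5 above 0. Slc13a4 (-0.75, unadjusted p = 0.0398) and the growth factor Igf2 (-0.85, unadjusted p = 0.0503) lay beside Ogn in this list. For Igf2 the unadjusted limma p was 0.0397 without PF-04447943 Tg2576 array 1. The mean meningeal level was 6.94 to 7.84 in Tg2576 and 6.82 to 8.41 in wild-type mice, and its part in the difference of Ogn was not tested.

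Of the neuronal lists beside the dentate one, that of thalamus and habenula, which border the hippocampus, had a median of -0.20 with 2 of 7 genes above 0. Its transcription factor Lef1 differed by -0.22 (unadjusted p = 0.0174), and the list median under PF-04447943 was 0.13. Of 15 immediate early genes, which report recent neuronal activity, 0 had an unadjusted p under 0.05, with Nr4a1 at -0.17 and Egr3 at -0.14. Grin2a, an NMDA receptor subunit, was at 7.82, 8.19 and 8.90 in Tg2576 and 7.47, 7.90 and 8.52 in wild-type mice, a difference of 0.38 (unadjusted p = 0.0476), and -0.27 under PF-04447943 (-0.15 without array 1). The 9 GABA-A receptor genes had a median of -0.04, the 14 postsynaptic scaffold genes 0.01 and the 14 genes of vesicle release 0.03, with 0 unadjusted p under 0.05 in each in the main fit. Without PF-04447943 Tg2576 array 1 the scaffold gene Dlgap4 (0.12) had an unadjusted p of 0.0325 in limma. Sst, the peptide somatostatin of interneurons, was at 11.59, 11.80 and 12.05 in Tg2576 and 11.74, 12.02 and 12.28 in wild-type mice, a difference of -0.21 (unadjusted p = 0.0228), and -0.28 under PF-04447943. In the cyclic GMP list, 4 of 13 genes lay above 0, with a median of -0.08, and 1, the phosphodiesterase Pde10a, had an unadjusted p under 0.05 (-0.28, unadjusted p = 0.03), while Pde5a differed by -0.11 and the guanylate cyclase subunit Gucy1b1 by -0.11. Pde10a was also in the list of striatal neuron markers. In that list Drd1 differed by 0.31 (unadjusted p = 0.0368 in limma), 4 of 8 genes lay above 0 and the median was -0.02. Without PF-04447943 Tg2576 array 1 the unadjusted p of Drd1 was 0.0023 in limma (adjusted p = 0.455).

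Endothelial genes had a median of 0.01, with Pecam1, an adhesion protein of vessel walls, at 0.20 (unadjusted p = 0.0375) and Esam at 0.14 (unadjusted p = 0.0352). The lists of the unfolded protein response, of heat shock chaperones, of oxidative phosphorylation, of ribosomal proteins, of glucocorticoid response and of the circadian clock had medians between -0.03 and 0.05, and 0 members with an unadjusted p under 0.05 in the main fit. Without PF-04447943 Tg2576 array 1 the glucocorticoid response gene Pdk4 (-0.22) had an unadjusted p of 0.0291 in limma, and the clock gene Dbp 0.0332. All 9 ribosomal protein genes lay below 0, between -0.06 and -0.01. Dbp, a clock output gene, was at 8.63 to 10.46 in Tg2576 and 9.56 to 10.72 in wild-type mice. Its difference was -0.48 ± 0.25 (SE, unadjusted p = 0.062 in the main fit).

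The genotype difference under vehicle was also tested against that under PF-04447943. At an adjusted p under 0.05, 0 of 12961 genes differed, with 360 at an unadjusted p under 0.05 (2.78%; 1.17% with the difference higher under vehicle and 1.61% with it higher under PF-04447943), 46.1% above 0, and a smallest adjusted p of 0.9998 in limma. Without PF-04447943 Tg2576 array 1, 0 differed and 297 had an unadjusted p under 0.05. Etnppl, an astrocyte enzyme that breaks down phosphoethanolamine, had the smallest p, with a difference of 0.76 under vehicle and -0.80 under PF-04447943 (unadjusted p = 0.000818). Under vehicle it was at 6.88, 7.82 and 8.95 in Tg2576 and 6.04, 7.17 and 7.99 in wild-type mice, so the groups overlapped. Next were Htra1, a secreted protease (0.07 and -0.20), Manba, a lysosomal mannosidase (0.14 and -0.39), Fbxl7 (-0.17 and 0.15) and the signal protein Wnt10b (-0.14 and 0.17), with unadjusted p from 0.00107 to 0.0021. Without array 1 the differences under PF-04447943 were -0.68 for Etnppl and -0.30 for Manba, and the unadjusted p of these 5 genes was 0.00154 to 0.00341.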

How the data were processed

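RNA of each hippocampal or prefrontal sample was hybridised to an Affymetrix mouse array. The deposited values are linear intensity values, made by the authors with RMA per the submitters' processing notes; whether all arrays were normalized together is not given in the sources used here. They were converted to log2. RMA makes array distributions alike, so differences are relative. Of 45101 probe sets, 34945 had 1 gene symbol, 932 several, 9160 none and 64 were controls. Each of 18193 genes was read from the probe set whose mean over 64 arrays was highest, and genes under the 40th percentile of a region (log2 5.94 in hippocampus) were left out.

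limma 3.58.1 (R 4.3.3, data.table version 1.17.8) fitted the 4 hippocampal groups together, with two-sided tests adjusted by Benjamini-Hochberg over all genes tested, at 0.05; it was tested on simulated data. Fdft1 was also tested by exact permutation. Python 3.11.15 (numpy 2.4.6, pandas 2.3.3, scipy 1.17.1) and matplotlib 3.10.9 gave summaries and figures. Promoters came from RefSeq (GRCm38.p6). Samples were grouped by their titles; the design names 8 mice per group, but no label ties an array to a mouse, so p-values measure the spread between samples. Arrays have no read depth, and their number limits the precision. Named were every gene past the threshold, the 15 with the smallest p in each direction, genes whose groups did not overlap, all sterol list members, App, Prnp and Pde9a, up to 3 genes of smallest p per other list (others named were picked after their values were seen), and 5 for the difference between treatments. Members, lists and this rule were chosen with earlier results of these data known. Alternatives covered filters, probe sets, normalization, the variance model, covariates, blocks and left-out arrays; leaving out the PF-04447943 Tg2576 array with prefrontal marker levels was added after seeing the data.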

Additional observations from a re-analysis of the deposited data

Results flagged for a closer look

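In groups of 8 arrays, a lowest or highest array that stood apart from the others was looked for in 194 groups, the 2 genotypes of each gene and measure, and 13 were found. Chance gives about 1 in 20 such groups.

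Among sterol genes, Msmo1 was at 9.91 on wild-type array 8, with the other 7 at 10.25 to 10.38, and Cyp51 at 8.74 on Tg2576 array 3, with the others at 8.98 to 9.18. On wild-type array 5, Dock1 stood at 8.73, Sox10 at 10.3, Slco1c1 at 11.04 and the signal range at 3.69, each the highest of the group. On Tg2576 array 5 the choroid plexus genes Steap1, at 6.68, and Sostdc1, at 9.56, and the mean of the choroid plexus list, at 8.97, stood above the rest. Csf3r was highest on wild-type array 7, at 7.15, and Esam on wild-type array 1, at 8.55. Syk was highest on Tg2576 array 6, at 6.70, and Htra1 on Tg2576 array 1, at 11.98.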

How the results depend on the processing

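Fdft1 kept its direction and its call under every alternative but 1: with arrays 1 to 4 alone it was at 0.361 (adjusted p = 0.382 in limma). Leaving out 1 array gave 0.515 to 0.599, with an adjusted p of at most 0.0268, and the mean of its probe sets 0.31. The count of genes past the threshold, 1, was 2 with every probe set tested (the 2 bright probe sets of Fdft1), with quantile normalization (Fdft1 and Sqle), with the choroid plexus covariate (Fdft1 and Lgals3), with only the compared groups (Fdft1 and Mcm6) and with the replicate block (Fdft1 and Stard4). It was 3 with array weights (Fdft1, Hmgcs1 and Sqle), 4 with the oligodendrocyte covariate (Fdft1, Hmgcs1, Stard4 and Nrarp), 0 with arrays 1 to 4 and 9 with arrays 5 to 8, of which 5 were higher and 4 lower. Leaving out 1 array gave 1 to 8 genes: 8 without Tg2576 array 3 (Fdft1, Fdps, Hmgcs1, Msmo1, Nsdhl, Sqle and Stard4 higher, Spry1 lower), 3 without wild-type array 1 (Fdft1, Sqle and Stard4), 3 without PF-04447943 Tg2576 array 1, left out after seeing the data (Fdft1, Hmgcs1 and Stard4), and 2 without Tg2576 array 1 (with Dio2), Tg2576 array 4 (with Cenpo) or wild-type array 3 (with Spata13). Same-numbered arrays of the genotypes did not pair: correlations of their deviations ran from -0.14 to 0.34, and 1 of 8 was closest to its own number. The sterol median moved to 0.0489 with arrays 1 to 4 and was 0.169 to 0.249 with 1 array left out; the choroid plexus median was -0.81 to -0.375 with 1 array left out, -0.929 with arrays 1 to 4, -0.363 with arrays 5 to 8 and -0.478 with the oligodendrocyte covariate. Genes whose difference depended on treatment numbered 0 under each alternative, leaving out 1 array included. The covariate fits and the fit of arrays 1 to 4 held PF-04447943 Tg2576 array 1. That of arrays 5 to 8 did not. Why arrays 1 to 4 and 5 to 8 differ was not tested. With 8 arrays per group the median SE was 0.076, so differences of that size were not detectable gene by gene. Far larger ones, such as 0.32 for Hmgcs1 and 0.51 for Stard4, did not pass in the main fit either. Dim genes under the filter were not tested.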

Other observations

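Spata13, among the genes with the smallest p on the lower side, and Fdft1 lie on the same chromosome, 14. This was noticed after their values were seen. In the RefSeq order of GRCm38.p6, 77 genes lie between them, of which 14 were tested. Their differences under vehicle ran from -0.16 to 0.21 with a median of 0.01. At an unadjusted p under 0.05, 0 of the 14 were higher and 1, Wdfy2, was lower.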
